A study of Mus musculus with 4 samples.

Results

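The small leucine-rich proteoglycans described here are 10 genes, Dcn, Bgn, Aspn, Fmod, Lum, Prelp, Kera, Omd, Ogn and Epyc, out of 27597 gene names on the array. They were chosen by family membership, with earlier results of these data known. All 14 probes annotated to them, of 41174 probes, are accounted for. Expression was measured in OP9 cells, a mouse stromal line used to support blood cell progenitors, on 1-colour Agilent arrays. The Control group (2 arrays) carried the LZRS-IRES-GFP retroviral vector alone, and the Wnt3A group (2 arrays) carried that vector with an insert of Wnt3A, a secreted Wnt ligand. All 4 samples shared the cell line, the vector backbone and its GFP marker, and the labels name no further treatment. Each sample was bulk RNA amplified by a global PCR method, so a change in the number of cells of a type and a change in RNA per cell cannot be told apart. Nothing in the labels says that the replicates of a group were grown separately. The p-values therefore reflect only how far these samples differ, which may be technical.

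Small leucine-rich proteoglycans are secreted matrix proteins whose curved leucine-rich repeat domain binds collagen fibrils and limits how the fibrils fuse and thicken. Many carry chondroitin, dermatan or keratan sulfate chains, and several bind TGF-beta family ligands. They are grouped by sequence into classes, of which class I holds Dcn, Bgn and Aspn, class II holds Fmod, Lum, Prelp, Kera and Omd, and class III holds Ogn and Epyc. In the skeleton, biglycan and osteomodulin are known from bone matrix, fibromodulin from tendon and cartilage, and epiphycan from growth plate cartilage.

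The deposited table of all samples and the deposited scanner files did not match array by array, and this bears on every result below. Each of the 4 table columns was closest in rank to the scanner file of Control replicate 2 (Spearman's rho 0.826 to 0.845), and the rho of a column with its own scanner file was 0.637 and 0.826 in Control and 0.684 and 0.746 in Wnt3A. The share of spots well above background in the scanner files ranged from 41.8% to 85.7%. A different measure, the Pearson r of log2 intensities over the tested probes of the table, was 0.930 within Control and 0.935 within Wnt3A. Between arrays of different groups it was 0.876 to 0.885. The results below use the table, a choice made with earlier results of both sources known. It is the source in which the groups differ: 92 genes passed as higher and 55 as lower in the table, against 0 and 2 with the processed scanner signals. The changes from the scanner signals are given beside each member that passed.

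Values are intensities on a scale where the median of each array is 1. A detection floor was estimated for each array (0.0533 to 0.0729 on that scale), and a probe was tested if both arrays of Control, of Wnt3A or of both groups exceeded their floors. A change is the mean log2 intensity in Wnt3A minus that in Control, after scaling each array to its 75th percentile, with its standard error. Adjusted p-values are from limma with Benjamini-Hochberg adjustment over all 33709 tested probes. The threshold was 0.05. In simulated data, changes of log2 2, 3, 4 and 6 passed in 1.2%, 30.4%, 77.2% and 95.2% of probes. A gene that did not pass is therefore not shown to be unchanged.

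Of the 10 genes, 8 were tested, and 3 were higher in Wnt3A past the threshold: Fmod, Dcn and Omd, by 168-fold, 61.6-fold and 17.2-fold. No member passed as lower. Over all 22859 tested genes, 0.402% passed as higher and 0.241% as lower. Aspn, Epyc, Ogn and Prelp had higher means in Wnt3A without passing. Bgn had a slightly lower mean by a probe at the 98.7 percentile of probe intensity or above on every array. Its other probe lay at percentiles 39.0 to 61.1. Lum and Kera were not tested. Of the 7 tested members above the floor on all 4 arrays, 6 were higher in both Wnt3A arrays than in both Control arrays. The same held for 20.8% of the 21173 tested genes above the floor on all arrays, and 23.1% were lower without overlap, as Bgn was. Over all tested genes, with no such limit, the shares were 21.5% and 23.7%. The median change over these 7 members was 2.76, against -0.01 over all tested genes with no such limit. Over all 8 tested members, with Aspn at its lower bound, the median change was 2.38. Aspn passed the filter only through the Wnt3A arrays, so it could only add a rise. This median also mixes its bound with fitted changes of the others.

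**Figure D1:**
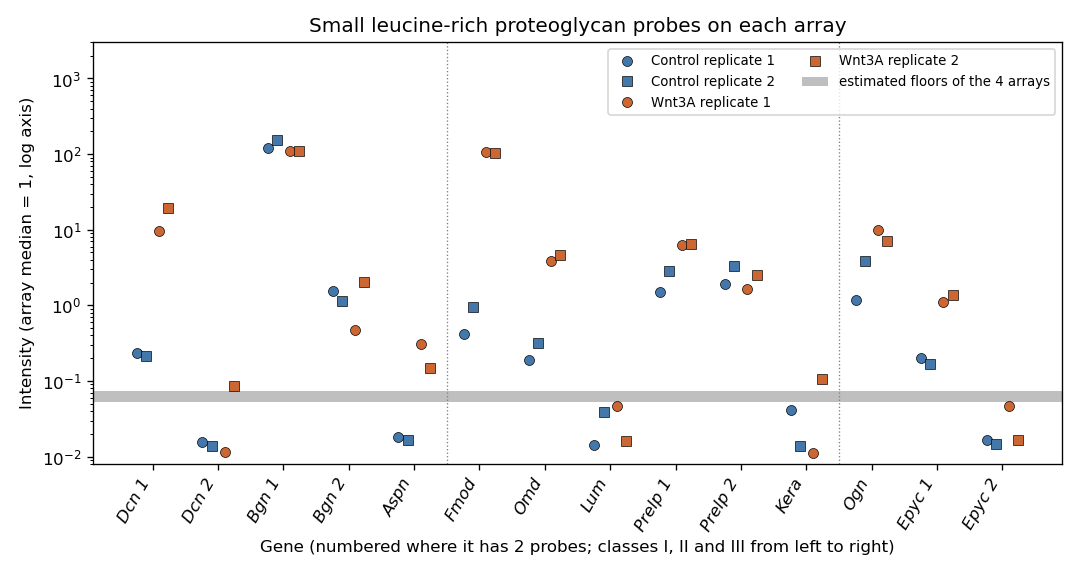
Intensity of each of the 14 probes on the 4 arrays (log axis, array median of 1), with classes I, II and III from left to right and the range of the estimated floors as a grey band. The Wnt3A arrays lie far above the Control arrays for Fmod, the first Dcn probe and Omd, while the first Bgn probe is bright on all 4 arrays and Lum lies below the floor on all 4.

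Promoters of 8 members, in 9 entries, were found in the RefSeq table (GRCm38.p6), and none was listed for Dcn and Lum. The 250 bases before the annotated start are shown for Fmod and Omd. Both passed the test, and their windows hold no match to a TCF/LEF word. They are also shown for Epyc and Bgn, which did not pass and whose windows do hold a match. The windows shown were thus picked by both traits. Aspn, Ogn and Prelp did not pass either, and their windows hold no match. TCF/LEF proteins are the DNA-binding partners of beta-catenin in Wnt signalling. The words searched, on both strands, were CTTTG followed by AA, AT, TA or TT, and capitals mark a match. The windows, all on the plus strand, are chr1:134037004-134037253 for Fmod, chr13:49582212-49582461 for Omd, chr10:97643818-97644067 for the first Epyc entry and chrX:73483351-73483600 for Bgn.
Fmod: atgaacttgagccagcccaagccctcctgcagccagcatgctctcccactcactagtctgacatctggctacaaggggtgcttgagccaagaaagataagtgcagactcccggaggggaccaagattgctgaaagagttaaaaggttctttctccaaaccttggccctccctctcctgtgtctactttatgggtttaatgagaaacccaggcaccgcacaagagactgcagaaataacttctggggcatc
Omd: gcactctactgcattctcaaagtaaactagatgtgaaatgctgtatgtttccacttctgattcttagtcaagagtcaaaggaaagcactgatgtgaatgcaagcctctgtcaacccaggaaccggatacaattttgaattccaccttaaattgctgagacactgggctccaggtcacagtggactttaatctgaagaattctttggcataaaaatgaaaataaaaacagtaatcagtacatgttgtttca
Epyc: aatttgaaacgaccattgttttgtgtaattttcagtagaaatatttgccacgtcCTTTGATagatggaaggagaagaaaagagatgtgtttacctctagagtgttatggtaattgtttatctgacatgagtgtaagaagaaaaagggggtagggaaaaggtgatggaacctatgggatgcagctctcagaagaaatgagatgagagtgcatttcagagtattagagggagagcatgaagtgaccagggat
Bgn: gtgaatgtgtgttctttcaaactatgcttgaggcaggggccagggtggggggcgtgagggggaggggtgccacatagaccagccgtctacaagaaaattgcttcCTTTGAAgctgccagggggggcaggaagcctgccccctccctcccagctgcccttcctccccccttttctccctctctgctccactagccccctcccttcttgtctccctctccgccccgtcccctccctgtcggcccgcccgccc

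A TCF/LEF word was present in 14.84% of the 32851 promoter windows of the table. Among the members it was present for Bgn, starting 146 bases before the start, for Epyc (196 and 195 bases before its 2 annotated starts) and for Kera (138 bases before). The windows of Fmod, Omd, Aspn, Ogn and Prelp held none, which says only that these letters are not in this window. The TATA box letters TATAAA, found in 12.37% of windows on either strand, occurred 2 times each in Aspn and Ogn, all at least 178 bases before the start. The RUNX word TGTGGT, found in 14.05% of windows, occurred once, 65 bases before the start of Ogn. The AP-1 word TGANTCA, found in 6.75% of windows, occurred in none of the members. These matches are a description of the letters and not of binding.

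Among class I genes, decorin (Dcn), which binds type I collagen and TGF-beta, was measured by a probe at chr10:96947287-96947346 (mm8, the build of the array annotation, as for all probe positions). Its intensity was 0.237 and 0.211 on the Control arrays and 9.65 and 19.4 on the Wnt3A arrays. Both Control arrays were low, both Wnt3A arrays were high, and the groups did not overlap. The change was 5.94 ± 0.45 (SE, n = 2 and 2 arrays; limma adjusted p = 0.0348; 95% confidence interval 4.71 to 7.17). Dcn ranked 14 by size of rise among the 21173 genes above the floor on all arrays. With the processed scanner signals the change was 0.16, with overlapping groups. A second Dcn probe, annotated at chr10:96910401-96910460 from another transcript record, was above the floor only on Wnt3A replicate 2 (0.0860), lay at 0.0113 to 0.0157 on the other arrays, and was not tested. The 2 probes thus did not give the same picture on either Wnt3A array. On Wnt3A replicate 2 the second probe lay just over the floor of 0.0729, at percentile 20.8, against 91.6 for the first.

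Biglycan (Bgn), the closest relative of decorin and a product of bone-forming cells, stayed bright throughout by its first probe only. That probe (chrX:69745935-69745994) read 120 and 153 in Control and 111 and 109 in Wnt3A. Both Wnt3A values lay just under both Control values. The change was -0.29 ± 0.31 (limma adjusted p = 0.760), and its 95% confidence interval of -1.12 to 0.54 does not include the change measured for Fmod, Dcn or Omd. The second Bgn probe (chrX:69744406-69744465) read 1.54 and 1.13 in Control and 0.473 and 2.04 in Wnt3A. The groups overlapped, the change was -0.42 ± 0.79 (adjusted p = 0.877), and the 95% confidence interval ran from -2.55 to 1.72.

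Asporin (Aspn), which lacks the glycosaminoglycan attachment sites of decorin and binds collagen and TGF-beta, was detected only with Wnt3A. Its probe (chr13:49579047-49579106) read 0.0181 and 0.0166 in Control, below the floor, and 0.305 and 0.148 in Wnt3A, above it. It passed the filter only through the Wnt3A arrays, so it had to differ. Set against the floor, Aspn was at least 3.21-fold higher in Wnt3A, or 1.61-fold with a floor 2 times as high. The fitted change did not pass the threshold (limma adjusted p = 0.0824).

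Among class II genes, fibromodulin (Fmod), which binds type I collagen and takes part in its cross-linking, had the largest change of the family. Its probe (chr1:135863832-135863891) read 0.415 and 0.961 in Control and 107 and 103 in Wnt3A. The Control arrays were at percentiles 37.3 and 49.5 of all probes and the Wnt3A arrays at 98.7 and 98.6. The groups were far apart, and the Control arrays differed more from each other than the Wnt3A arrays did. The change was 7.39 ± 0.48 (SE, n = 2 and 2 arrays; limma adjusted p = 0.0293; 95% confidence interval 6.09 to 8.69), which ranked 2 by size of rise among the 21173 genes above the floor on all arrays. With the processed scanner signals the direction turned, to -1.15, with overlapping groups.

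Osteomodulin (Omd), a keratan sulfate proteoglycan of mineralised matrix, was measured at chr13:49604415-49604474. It read 0.191 and 0.318 in Control and 3.84 and 4.59 in Wnt3A. Both Control arrays were low, both Wnt3A arrays were high, and the groups did not overlap. The change was 4.10 ± 0.37 (SE, n = 2 and 2 arrays; limma adjusted p = 0.0452; 95% confidence interval 3.09 to 5.11), and Omd ranked 43 among the 21173 genes above the floor on all arrays. Its call was close to the threshold: with each array scaled to its median the adjusted p was 0.05001, and with quantile normalization it was 0.0549. With the processed scanner signals the change was 0.13, with overlapping groups.

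Prelp, a protein of connective tissue that binds heparan sulfate as well as collagen, gave 2 unlike readings from 1 transcript. The probe at chr1:135731455-135731514 read 1.52 and 2.83 in Control and 6.24 and 6.50 in Wnt3A, a change of 1.63 ± 0.40 (limma adjusted p = 0.220; 95% confidence interval 0.55 to 2.71). The groups did not overlap. The probe at chr1:135726768-135726827, nearer the 3′ end of the transcript, read 1.94 and 3.27 in Control and 1.66 and 2.54 in Wnt3A. There the groups overlapped and the change was -0.28 ± 0.42 (adjusted p = 0.839). Averaging both probes gave 0.67.

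Lumican (Lum) and keratocan (Kera), keratan sulfate proteoglycans best known from the cornea, were too dim to test. Lum (chr10:97002264-97002323) read 0.0141 and 0.0384 in Control and 0.0467 and 0.0160 in Wnt3A, under the floor on all 4 arrays. Kera (chr10:97043284-97043343) read 0.0414 and 0.0140 in Control and 0.0110 and 0.106 in Wnt3A, above the floor only on Wnt3A replicate 2. Neither gives a fold change.

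Among class III genes, osteoglycin (Ogn), also called mimecan, was measured at chr13:49636117-49636176. It read 1.18 and 3.80 in Control and 9.85 and 7.07 in Wnt3A. The groups did not overlap, but the Control arrays lay further apart than the Wnt3A arrays. The change was 1.99 ± 0.64 (limma adjusted p = 0.318; 95% confidence interval 0.26 to 3.72). It was 1.20 without Control replicate 1 and 2.79 without Control replicate 2. With the processed scanner signals the direction turned, to -1.47, also without overlap.

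Epiphycan (Epyc) read 0.200 and 0.166 in Control and 1.10 and 1.36 in Wnt3A at chr10:97110899-97110958. All 4 arrays were above the floor and the groups did not overlap. The change was 2.76 ± 0.34, or 6.77-fold (limma adjusted p = 0.0738; 95% confidence interval 1.85 to 3.67). The second probe, on the same transcript at chr10:97111019-97111078, lay under the floor on all 4 arrays (0.0149 to 0.0461) and was not tested, so the higher mean of Epyc rests on 1 probe.

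**Figure D2:**
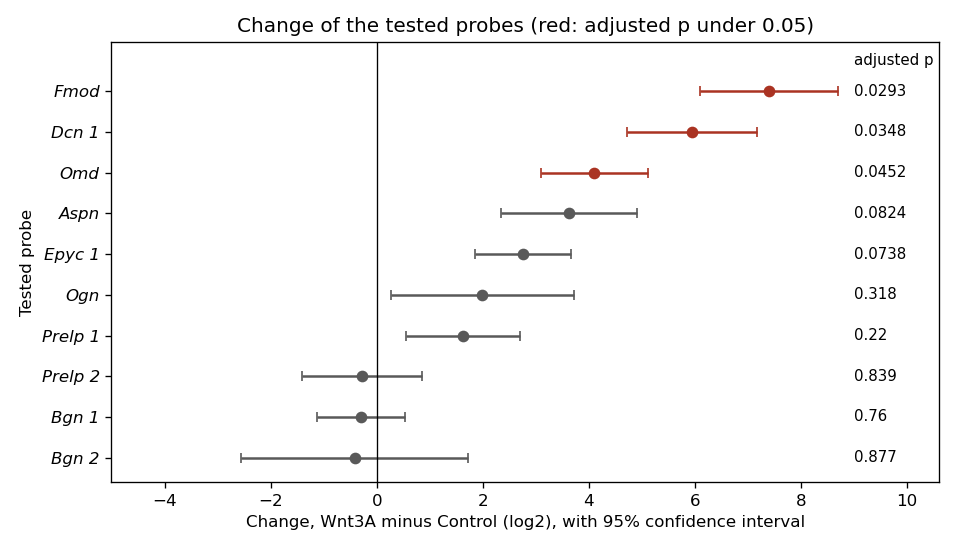
Change (log2, Wnt3A minus Control) of the 10 tested probes with 95% confidence intervals and adjusted p-values, red where the adjusted p is under 0.05. Fmod, Dcn and Omd pass, and both Bgn probes and the second Prelp probe have intervals that include 0. The Control arrays of Aspn are below the floor, so its plotted change is a fitted value and not a bound.

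Except for Bgn, the members lie in 3 groups of adjacent genes. In the order of the RefSeq table, Prelp and Fmod are neighbours on chromosome 1, Dcn, Lum, Kera and Epyc on chromosome 10, and Aspn, Omd and Ogn on chromosome 13. Each group held 1 gene that passed the test and at least 1 that did not. On chromosome 1 the changes were 1.63 for Prelp and 7.39 for Fmod, and the difference between them was not tested. On chromosome 10, Dcn and Epyc at the outer ends had changes of 5.94 and 2.76, while Lum and Kera between them were not tested. On chromosome 13, Omd had a change of 4.10 beside 1.99 for Ogn, and Aspn was detected only in Wnt3A.

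None of the genes next to these groups passed the test by the probe that represents it. The change was 0.25 for Optc (adjusted p = 0.846) and -0.09 for Btg2 (0.962) on chromosome 1. It was -0.48 for Ecm2 (0.820) and 1.40 for Nol8 (0.392) on chromosome 13. A second tested Ecm2 probe went the other way, at 1.10 (0.519), with groups that did not overlap. Btg2 has 3 probes and Nol8 has 2, of which 1 each is given. Beside Bgn on the X chromosome, it was -0.40 for Haus7 (0.696) and 1.23 for Atp2b3 (0.332). On chromosome 10, Gm46240 had no probe on the array and Ccer1 was not tested.

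**Figure D3:**
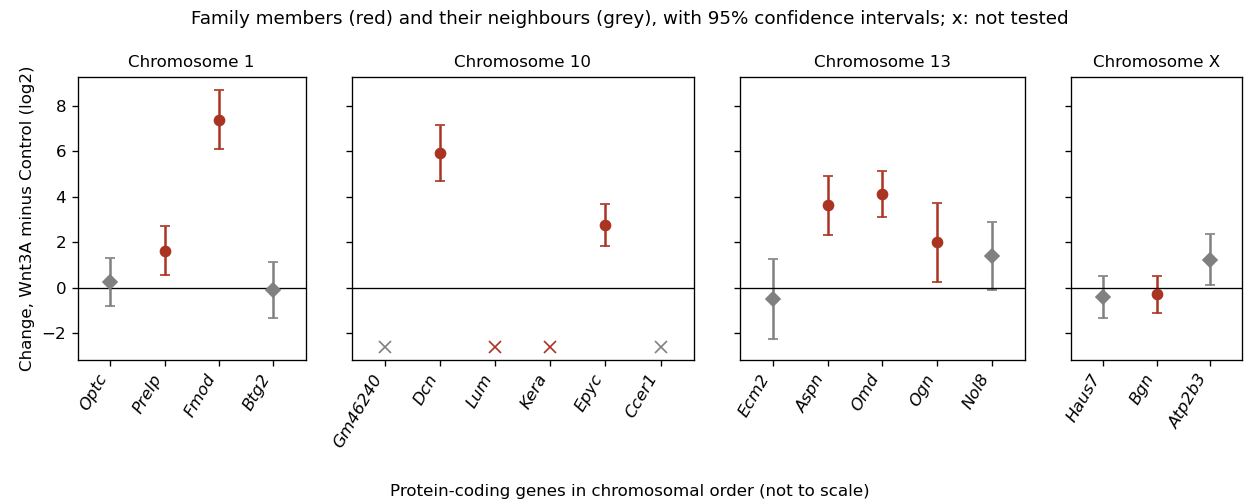
Change (log2, Wnt3A minus Control) of the members (red) and the neighbouring genes (grey) in chromosomal order, not to scale, with 95% confidence intervals and crosses for genes that were not tested. Fmod at 7.39 stands beside Btg2 at -0.09, and the untested Lum and Kera lie between Dcn and Epyc.

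The wider set of genes that build, bind or cleave these proteoglycans was described by counts. Of 8 other leucine-rich repeat proteoglycans, all tested, none passed, 4 had higher and 4 lower means, and the median change was 0.04. The smallest p-values in this list belonged to Podnl1, with a change of 1.29 (adjusted p = 0.219), and Podn, with 1.95 (0.758) and overlapping groups. Large proteoglycans gave 1 higher and 4 lower means of 5 tested, with a median of -0.16 and no call, led by Prg4 at -0.73 (0.487) and Ncan at -0.54 (0.552).

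The enzymes that make the sugar chains did not pass either. For chondroitin and dermatan sulfate synthesis, 21 of 23 genes were tested, 13 had higher and 8 lower means, and the median was 0.13. Csgalnact1, which starts the chondroitin chain, read 2.25 and 2.59 in Control and 0.402 and 0.595 in Wnt3A, a change of -2.29 (adjusted p = 0.107). Ust, a uronyl sulfotransferase, had a change of 2.07 (0.354). For keratan sulfate synthesis, all 8 genes were tested, with 4 higher and 4 lower means and a median of 0.11. Chst1, the keratan sulfate sulfotransferase, read 6.73 and 6.25 in Control and 0.245 and 1.22 in Wnt3A, a change of -3.56 (0.207), and Chst2 had a change of -0.71 (0.419).

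Fibrillar and fibril-associated collagens and cross-linking enzymes had 13 higher and 4 lower means among 17 tested of 18 genes, with a median of 0.83. No gene passed by the probe that represents it. Col11a1 (3.23, adjusted p = 0.0556) and Col3a1 (4.27, 0.0721) came nearest. Of the 30 tested probes of this list 3 passed as higher, each with a lower mean log2 intensity over the 4 arrays than the probe that represents its gene, and they were picked out after their values were seen: Col11a1 at 8.08 (0.0226), Col3a1 at 5.35 (0.0454) and Col12a1 at 5.79 (0.0479). The Col11a1 probes thus gave unlike sizes, 3.23 and 8.08.

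Among TGF-beta and BMP ligands and receptors, 11 of 12 genes were tested, 6 had higher and 5 lower means, and the median was 0.07. Tgfb2, a ligand that decorin and fibromodulin bind, read 0.122 and 0.197 in Control and 1.40 and 2.77 in Wnt3A, a change of 3.68 (adjusted p = 0.0820). Tgfbr3, a co-receptor, had a change of -1.16 (0.249). Receptors reported to bind the family gave 3 higher and 7 lower means of 10 tested, with a median of -0.29, and Met (-0.86, 0.400) and Lrp6 (-0.55, 0.539) had the smallest p-values. Proteases that cleave the family gave 5 higher and 4 lower means of 9 tested, with a median of 0.60, and Mmp14 (1.22, 0.219) and Mmp2 (0.84, 0.366) had the smallest.

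**Figure D4:**
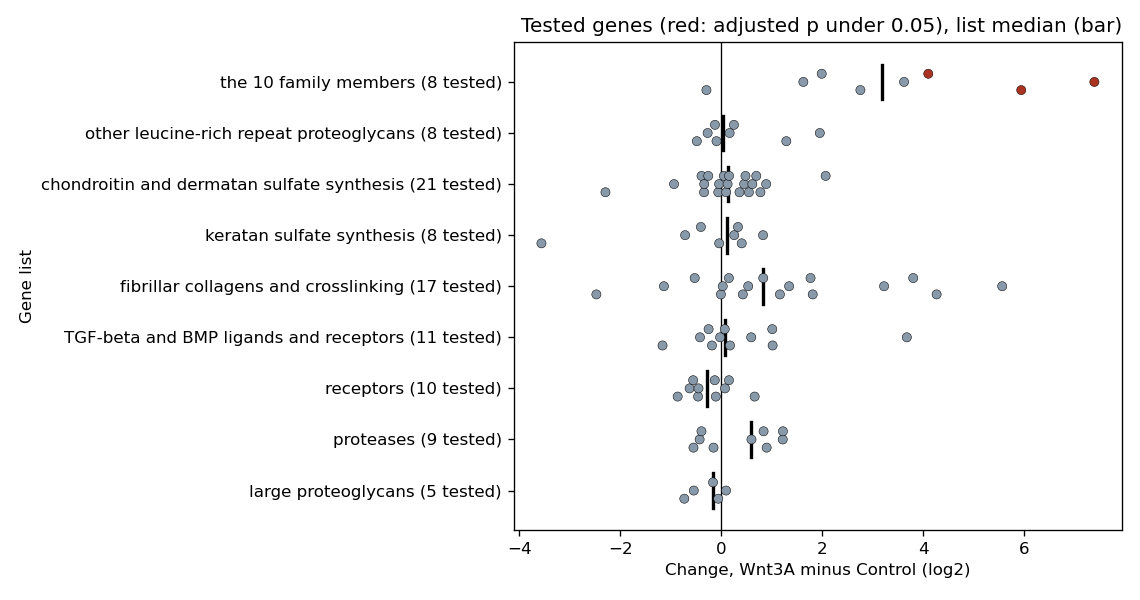
Change (log2, Wnt3A minus Control) of every tested gene of the family and of the 8 related lists, with the median of each list as a bar and red for an adjusted p under 0.05. The 3 red points belong to the family, and the related lists have medians from -0.29 to 0.83. The bar of the family, at 3.19, uses the fitted change of Aspn, and the median is 2.38 with Aspn at its lower bound. Aspn was tested only through the Wnt3A arrays and had to be higher.

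Markers of other cell types moved with the groups, and their part in the changes above was not tested. The summed intensity of 7 osteoblast markers was 31.8 and 24.7 in Control and 143 and 149 in Wnt3A. Of 6 tested, 4 passed as higher: Alpl, Ibsp, Pth1r (5.08) and Sp7 (4.57), and Dmp1 was under the floor on all arrays. Alpl and Ibsp were under the floor on both Control arrays, so they passed the filter only through Wnt3A. The summed intensity of 8 adipocyte markers was 912 and 1130 in Control and 123 and 88.7 in Wnt3A, and Plin4 (-4.04), Cd36 (-3.84) and Lpl (-3.42) passed as lower. Stromal markers, which include collagens of the list above, summed to 713 and 1034 in Control and 1697 and 1787 in Wnt3A, but did not move together: 4 had higher and 5 lower means, with a median change of -0.01. The higher means were those of Col1a1, Col1a2, Col3a1 and Sparc, all without overlap. Pdgfra (-2.25), Cxcl12 (-1.44) and Vim (-0.90) were lower without overlap. Over all tested genes, 21.5% were higher and 23.7% lower without overlap. None of the 9 genes passed by the probe that represents it, and 1 of the 18 tested probes passed as higher.

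The remaining marker lists had no call. Chondrocyte markers summed to 318 and 534 in Control and 194 and 182 in Wnt3A, with 1 higher and 6 lower means. Bright genes weigh most in a sum, and the median percentile of these markers was 69.1 and 68.2 against 67.8 and 65.5. Tenocyte markers summed to 61.3 and 58.8 against 43.1 and 28.9, with 1 higher and 4 lower means of 5 tested. Macrophage markers (14.6 and 11.6 against 12.6 and 11.8) and epithelial markers (10.7 and 8.17 against 8.68 and 9.21) overlapped between groups. Endothelial markers summed to 1.31 and 2.22 against 1.22 and 0.884, with Tek and Kdr under the floor on all arrays.

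The gene put into the cells gave only a weak check of the labels. The Wnt3a probe was above its floor on Wnt3A replicate 2 (0.123) and under it on Wnt3A replicate 1 (0.0112) and both Control arrays (0.0151 and 0.0134). Whether that probe lies in the part of the transcript carried by the vector is not given in the sources used here. Among 11 tested genes of the Wnt response list, Nkd2 (6.47, adjusted p = 0.0293) and Wif1 (at least 268-fold higher) passed. The Control arrays of Wif1 were under the floor, so it passed the filter only through the Wnt3A arrays and had to differ. Axin2, a feedback target of the pathway, read 0.0156 and 0.0138 in Control, under the floor, and 0.127 and 0.208 in Wnt3A, and did not pass (adjusted p = 0.0645).

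The calls of the 3 members rested on all 4 arrays. Leaving out any 1 array left no member and no gene past the threshold (between 2169 and 2631 genes had an unadjusted limma p under 0.05), while the changes stayed at 6.84 to 7.95 for Fmod, 5.46 to 6.43 for Dcn and 3.79 to 4.42 for Omd. An exact test of 2 against 2 arrays cannot give a two-sided p below 0.333.

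**Figure D5:**
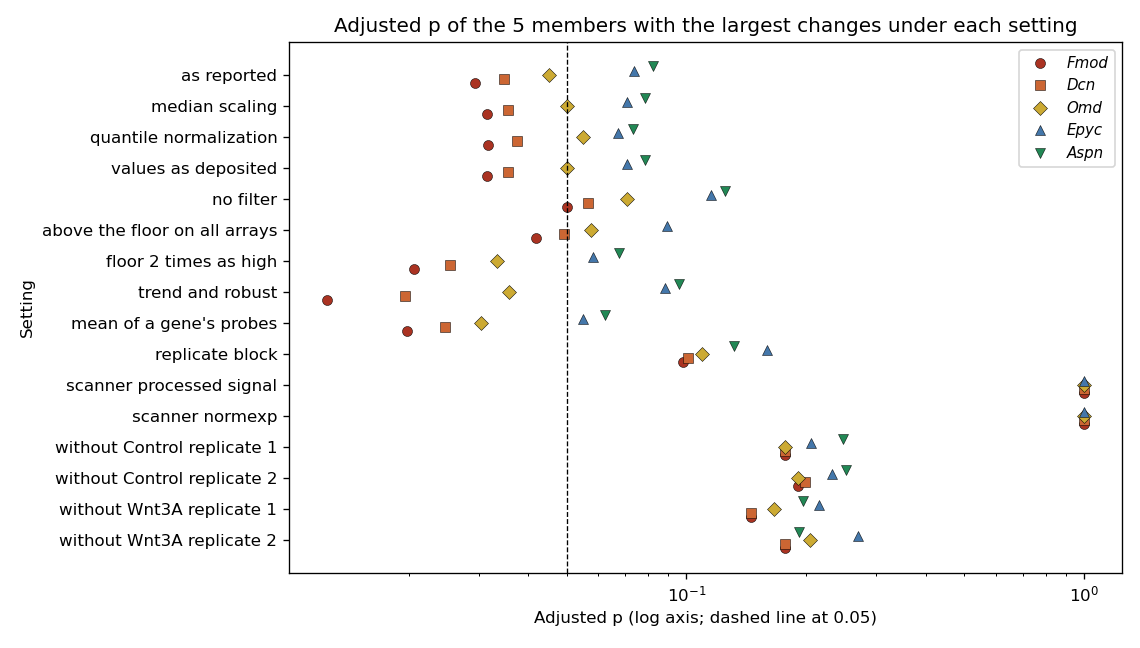
Adjusted p (log axis) of the 5 members with the largest changes under each processing setting, with a dashed line at 0.05. Median scaling and the values as deposited are the same analysis, counted separately here. Fmod and Dcn lie under the line in 7 and Omd in 3 of the 13 alternatives that use the table, and all those tested lie above it without a filter and with the replicate block, the scanner signals or 1 array left out.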

How the data were processed

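RNA from 4 OP9 samples was measured on 1-colour Agilent mouse arrays, all on 1 slide with 1 scan time. The authors deposited a table of linear intensity values with a median of 1 in every column; how they were background-corrected and scaled is not given in the sources used here. The scanner output gives intensity, per the file headers from Agilent Feature Extraction 10.5.1.1 and flags of other kinds (0 or 1 per spot). The members and gene lists were chosen with earlier results of these data known. The log2 intensity minus the 75th percentile of each array was averaged over the spots of a probe (43379 spots, 41174 probes). Floors were 4.94 times the 1st percentile of each column, the median over the scanner files of the lowest signal flagged well above background over that file's 1st percentile; this floor is lenient. Saturation could not be checked in the table. Probes were renamed through RefSeq by accession (24375), symbol (6301) or synonym (2426), and 8072 kept the file's name. The comparison used limma 3.58.1 (R 4.3.3), with lmFit and eBayes (two-sided, 2 residual and 2.29 prior degrees of freedom), and the steps were tested on simulated data. A gene was represented by its tested probe with the highest mean. Where a whole group lay under its floors, the fold was taken against them, which makes it a lower bound unless detection truly fails above that level. All members were named; from each further list, genes past the threshold and the 2 with the smallest p, besides the neighbours, Wnt3a and Axin2. Probe positions are on mm8. Only 4 arrays limit the precision. Alternatives were other scalings, filters, floors, eBayes settings, probe summaries, a replicate block, scanner signals and each array left out.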

Additional observations from a re-analysis of the deposited data

How the results depend on the processing

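Filters, floors, eBayes settings and the replicate block did not alter the fitted changes. Leaving out 1 array cannot turn the direction where groups do not overlap, as held for all tested members. Only the other scalings and the mean of a gene's probes could have turned a direction. With that limit, the 8 tested members kept the direction of their change in the 13 alternatives that use the table (12 for Aspn). Fmod and Dcn passed the threshold in 7 of them and Omd in 3, and Aspn, Epyc, Ogn, Prelp and Bgn in 0. The adjusted p ranged from 0.0125 to 0.191 for Fmod, 0.0195 to 0.199 for Dcn and 0.0305 to 0.204 for Omd. With median scaling, or with the values as deposited, 91 genes were higher and 54 lower and 2 members passed. These settings are the same analysis counted separately, since every column already has a median of 1. With quantile normalization 88 genes were higher and 59 lower and 2 members passed. Without a filter, 20 genes were higher, 15 lower and 0 members passed. Requiring all 4 arrays above the floor, 21 genes were higher, 13 lower and 2 members passed. A floor 2 times as high gave 118 higher and 84 lower, trend and robust eBayes 126 and 107, and the mean of the probes of a gene 130 and 96, with 3 members each. Leaving out 1 array gave 0 to 0 genes in either direction and 0 to 0 members. The cause of these differences was not tested.

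With the processed scanner signals, 0 genes were higher, 2 lower and 0 members passed, and 480 genes had an unadjusted limma p under 0.05. The changes of Fmod (-1.15), Ogn (-1.47) and Epyc (-0.64) reversed, and for Ogn the groups did not overlap in this direction either. With normexp on the scanner signals, 0 genes were higher, 0 lower and 0 members passed (220 at an unadjusted limma p under 0.05), and the changes of Fmod (-0.79), Dcn (-0.56), Omd (-0.67), Ogn (-1.42), Epyc (-0.85) and Bgn (0.048) reversed. Aspn and Prelp could not be tested there. The cause was not tested.

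The labels do not say whether equal replicate numbers pair the samples. The deviations of replicate 1 from its group mean correlated at 0.0124 between groups across probes. With only 2 pairs, this cannot settle whether the samples were paired. With the replicate block, 0 genes were higher, 0 lower and 0 members passed (2737 at an unadjusted limma p under 0.05), with adjusted p of 0.0978 for Fmod, 0.101 for Dcn and 0.109 for Omd. The slide or scan as a batch was not run, since all arrays share 1 of each. Members near or under the floor (Lum, Kera, Aspn and the second probes of Dcn and Epyc) are limited by signal over background.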

Other observations

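The scanner files gave the following processed signals for the members that passed in the table (log2 relative to the 75th percentile of each array, Control replicates 1 and 2, then Wnt3A replicates 1 and 2). Fmod was at 0.84 and -1.68, then -1.25 and -1.90, and was well above background on all 4 arrays. Dcn was at -2.58 and -2.45, then -1.10 and -3.61. Omd was at -1.78 and -6.06, then -3.45 and -4.13. The highest value of Fmod and of Omd was on Control replicate 1, the file with the lowest share of spots well above background (41.8%). The table and the scanner files thus give unlike orders of the arrays for Fmod, the member with the largest change. Which of them holds the arrays of the labelled samples was not tested.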
